A study of Homo sapiens with 3 samples.

Results

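MATR3 PAR-CLIP clusters that lay in nuclear protein-coding exons or 5' UTRs were 656 of the 115227 clusters listed over 3 libraries of HAP1 cells, a near-haploid human line from chronic myeloid leukaemia. A cluster was taken when its annotation read coding, start_codon, stop_codon or 5'utr and its chromosome was not the mitochondrial one, and each library was read on its own. Libraries 1 and 2 were replicates from wild-type (WT) HAP1 cells, which the series text calls independent, and the third from 1 commercially supplied MATR3 knockout (KO) HAP1 line, the study's negative control. No treatment separates the groups: all cells were UV-crosslinked, RNA was cut with RNase T1, and anti-FLAG beads were used for recovery, although no label records a FLAG tag on MATR3. The first WT library (replicate 1, WT1) held 480 exonic clusters of 87230, the other (replicate 2, WT2) 156 of 27155, and KO 20 of 842. The sample labels do not say whether they were separate cultures.

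MATR3 (matrin 3) is an abundant protein of the nuclear matrix with RNA recognition motifs and zinc fingers, known for binding pyrimidine-rich stretches of introns and for regulating splicing. In PAR-CLIP, cells take up a thiolated uridine that is joined to nearby protein by UV light and is then read as C in place of T, so T-to-C changes mark the sites of contact. RNase T1 cuts after G, which favours fragments that end at a G. Coding exons and 5' UTRs make up the spliced mRNA, together with the 3' UTR, and are bound by ribosomes and export factors as well as by nuclear RNA-binding proteins.

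The 10 exonic sites with the highest geometric mean of reads among those found in both WT libraries are given first, since both replicates placed a cluster there. Each line gives the central 30 bases or fewer of the interval that both libraries cover, 5′ to 3′ on the transcript strand, with coordinates counted from 1 on hg38, the build named in the submitters' processing notes. Capitals mark the longest run of C and T.
GDI2, chr10:5813352-5813381, minus strand: caTTTTCCTCTCTTTCTCTTCCCCTTTCCT
C6orf62, chr6:24720530-24720559, minus strand: ccagtaccaatccaactccccaTCTTTCTC
MAP1B, chr5:72199646-72199675, plus strand: ttcaCCCTCTTTCattaatcccaatcctct
EIF4G2, chr11:10799579-10799608, minus strand: taacaTCTCTCCCaaacttcatgtagataa
HIST1H2BI, chr6:26273222-26273251, plus strand: cattataacaagcgctcgaccatcaCTTCC
RNF219, chr13:78615908-78615937, minus strand: acccaCTTCTTTTTTTCTCCTCTCTCCatc
HIST2H2BF, chr1:149812316-149812345, minus strand: TTTTCTCTTTTTTCgcgcaaaaatgccgga
MED13, chr17:61965213-61965242, minus strand: ttcaacttcatcttcatcaTCCTCCaactt
CKS2, chr9:89316377-89316406, plus strand: acataTTCTTCTCTTTagacgacctcttcc
SLC3A2, chr11:62888502-62888531, plus strand: aactttggggatgtgggCCTCTCggctgga
The GDI2 and C6orf62 sites lay in 5' UTRs, the HIST2H2BF site at a start codon and the other 7 in coding sequence. Runs of C and T varied among them. The whole window of GDI2 except its first bases was C or T, with a run of 28 bases, and RNF219 had a run of 22, whereas HIST1H2BI had 5.

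Exonic clusters were a small share of the clusters in every library, and a larger share in KO than in WT. They were 0.550% of all clusters in WT1 (95% Wilson interval 0.503 to 0.602), 0.574% in WT2 (0.491 to 0.672) and 2.38% in KO (1.54 to 3.64). The KO interval lay above both WT values, whose mean was 0.562% ± 0.017 (SD, n = 2). Such intervals cover counting error only, since reads carry no molecular identifiers and clusters of a library are not replicates. With 1 KO library no test of genotype was run, because an exact permutation of 3 libraries cannot give a p below 0.333. Reads followed the same order: exonic clusters held 0.506% of cluster reads in WT1 (13504 reads), 0.537% in WT2 (8365 reads) and 1.96% in KO (4382 reads). Clusters with the deposited minimum of 2 converted positions were 74.2% of exonic clusters in WT1, 87.2% in WT2 and 90% in KO. At 3 or more converted positions the share was still the higher in KO, 0.758% against a WT mean of 0.325%, as was the read share, 0.574% against 0.372%, but only 2 KO exonic clusters were left.

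Coding sequence supplied most exonic clusters in all 3 libraries. Coding clusters numbered 321 in WT1, 115 in WT2 and 18 in KO, which was 66.9%, 73.7% and 90% of the exonic clusters. The 5' UTR class held 94, 22 and 2, the stop codon class 43, 14 and 0, and the start codon class 22, 5 and 0. The share of all clusters that lay in coding sequence was 0.368% in WT1, 0.423% in WT2 and 2.14% in KO. Both WT libraries had the same order of classes, and their intervals overlapped in each. The annotation could be read against the sequences. An ATG was in 21 of 22 start codon clusters of WT1 and 5 of 5 of WT2, against 22.5% of intronic clusters in each library. A stop triplet was in 38 of 43 and 13 of 14 stop codon clusters, a weaker check, since 63.8% and 61.4% of intronic clusters held one too. Every coding cluster was open in at least 1 reading frame, also a mild check at this length, since 97.9% of intronic clusters of WT1 were open as well.

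**Figure D1:**
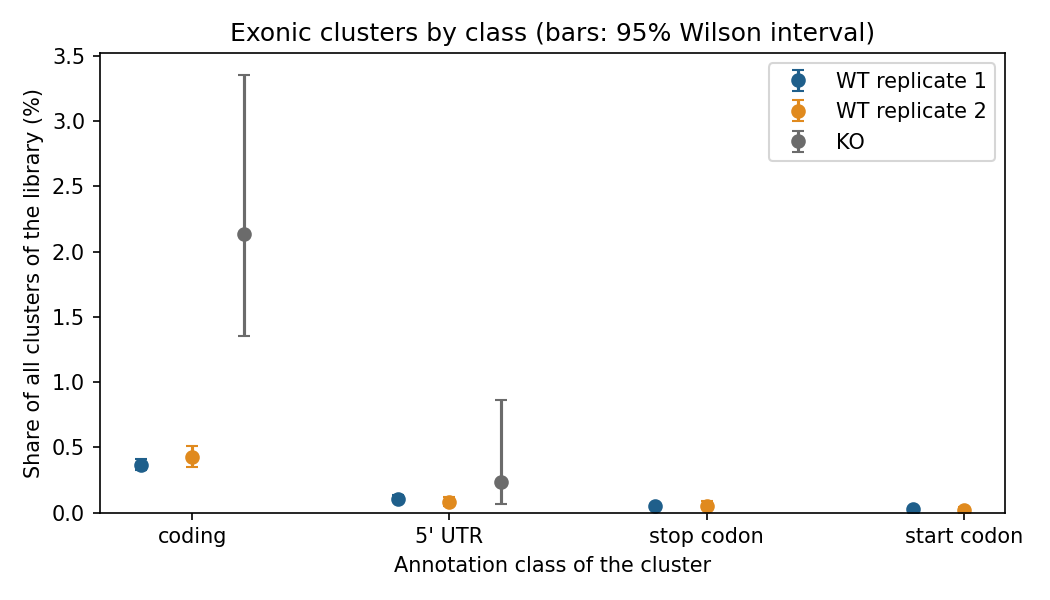
Share of all clusters of a library (y axis, percent) that lay in each exonic annotation class (x axis), with 1 point per library and 95% Wilson bars. The KO coding point, 2.14%, sits above the WT points of 0.368% and 0.423%, while the stop codon and start codon classes hold no KO cluster.

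The exonic clusters were mostly shallow and were spread over many genes. Median reads per cluster were 19 in WT1 (quartiles 11 to 31), 39 in WT2 (14.75 to 75.5) and 208.5 in KO (92 to 284). Intronic clusters of the same libraries had medians of 20, 38 and 240, so depth per cluster differed between libraries far more than between exons and introns. Many exonic clusters came from a single distinct read sequence, 102 of 480 in WT1, 25 of 156 in WT2 and 5 of 20 in KO. The clusters lay in 428, 150 and 20 genes, of which 386, 144 and 20 had 1 exonic cluster only.

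In WT, exonic clusters held less T and more G and C than intronic clusters of the same library. T was 31.4% of exonic cluster bases in WT1 and 34.1% in WT2, against 40.4% and 42.1% in introns. The difference was -8.92 percentage points in WT1 (95% interval -9.63 to -8.20, treating bases as independent) and -8.01 in WT2 (-9.31 to -6.68). C was 32.6% and 30.7% against 27.7% and 26.8% in introns, and G was 16.3% and 15.3% against 9.99% and 9.78%. Exonic clusters were thus lower in C and T together, 64.0% and 64.8% against 68.1% and 68.9%, by a smaller margin than in T alone. The 5' UTR class alone was close to introns in C and T together, at 67.9% in WT1 and 69.5% in WT2. In KO, T was 27.5% of exonic and 33.2% of intronic bases, a difference of -5.67 points (-9.15 to -1.91). At 3 or more converted positions the difference was -9.25 points in WT1, -2.24 in WT2 (-5.92 to 1.53) and -1.31 in KO (-11.8 to 10.99), so in WT2 and KO its interval then included 0. Every deposited cluster has at least 2 converted T positions, which sets a floor under the T share in exons and introns alike. The base content of exons without clusters was not used here, so these values do not separate binding from the composition of exons.

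**Figure D2:**
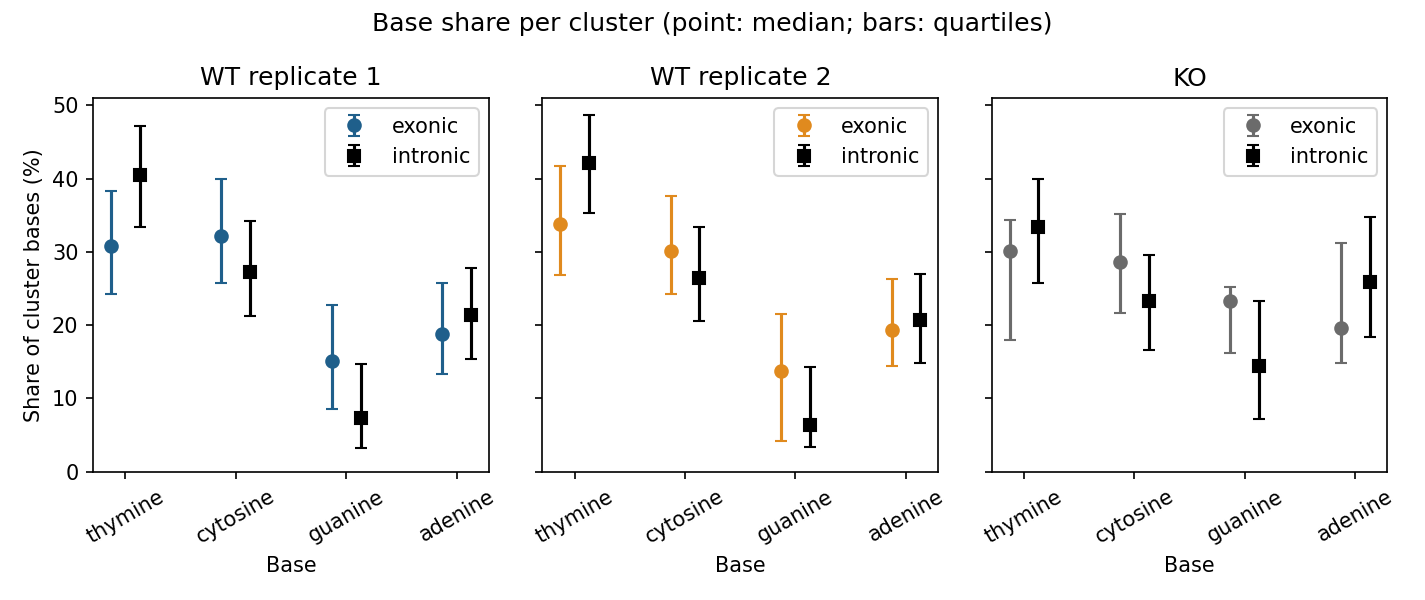
Share of cluster bases (y axis, percent) for each base (x axis) in exonic and intronic clusters, 1 panel per library, with medians as points and quartiles as bars. Median T in WT1 was 30.8% in exonic and 40.5% in intronic clusters, and median G was 15.2% and 7.41%.

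Highly pyrimidine-rich clusters were rarer in exons, and in WT1 they were a larger share of 5' UTR than of coding clusters. Clusters with at least 80% C and T were 8.13% of exonic clusters in WT1 (6.0 to 10.9) against 15.2% of intronic ones, and 10.9% (6.92 to 16.8) against 17.7% in WT2. None of the 20 KO exonic clusters reached that level, against 5.19% of KO intronic clusters, and the interval for 0 of 20 reached 16.1%. Within the exonic clusters of WT1, 15 of 94 in 5' UTRs passed it, 16.0% (9.92 to 24.7), against 6.54% (4.32 to 9.79) of coding clusters. In WT2 the values were 6 of 22, 27.3% (13.2 to 48.2), and 9.57% (5.43 to 16.3). The 5' UTR interval lay above the coding one in WT1 and overlapped it in WT2. In both libraries the 5' UTR interval held the intronic share, 15.2% and 17.7%.

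Short words recorded for MATR3 and its splicing partner PTBP1 were searched in the cluster sequences on the transcript strand only. ATCTT, the DNA spelling of the MATR3 word AUCUU, was in 11.3% of exonic clusters of WT1 (8.73 to 14.4) and 15.4% of WT2 (10.6 to 21.9). Intronic clusters weighted to the same lengths held it in 14.7% and 16.1%, above the interval in WT1 and within it in WT2. TTCTT or TTTCT, pyrimidine words that may overlap each other and share letters with ATCTT, were in 29.4% (25.5 to 33.6) and 26.9% (20.6 to 34.4) of exonic clusters. The length-weighted intronic shares were 43.5% and 45.2%, above both intervals. In KO, 1 of 20 exonic clusters held ATCTT and 3 of 20 held TTCTT or TTTCT, 15%, against 18.5% in KO introns at the same lengths. The pyrimidine words were thus less frequent in WT exons in both replicates, as was T itself.

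Few exonic clusters recurred by position between the WT libraries. Of the 480 in WT1, 18 were met on the same strand by a WT2 cluster (1 shared nt was enough), 3.75% (2.39 to 5.85), against 6.19% of intronic clusters. Of the 156 in WT2, 19 were overlapped by WT1, 12.2% (7.94 to 18.2), against 20.3% (19.7 to 20.8). Both shares were below the intronic ones. The comparison varied with depth. Among clusters of 50 or more reads, 19.2% (10.8 to 31.9) of exonic and 17.4% of intronic clusters of WT1 recurred. In WT2 these were 20.6% (12.7 to 31.6) and 25.1%, and both intronic values lay inside the exonic intervals. At 10 to 19 reads, 0 of 138 exonic clusters of WT1 recurred against 3.58% of intronic ones. In WT2 this was 0 of 31 against 15.8%, and both intronic values lay above the exonic intervals. At 5 to 9 and 20 to 49 reads the exonic shares were also the lower in both libraries, with the intronic values inside the exonic intervals. The recurring sites formed 18 exonic pairs in 17 genes, 7 of them with identical start and end. They were 11 coding, 5 5' UTR, 1 start codon and 1 stop codon site. The remaining overlap was in C5orf51, where a coding cluster of 74 reads in WT2 met a cluster of 36 reads that was annotated as coding-intron in WT1.

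The deepest pair was in the 5' UTR of GDI2, which encodes a Rab GDP dissociation inhibitor, with 660 reads in WT1 and 179 in WT2. C6orf62 followed with 256 and 115 reads at a 5' UTR site and had a further 5' UTR pair of 21 and 62 reads. MAP1B, a microtubule-associated protein, had 84 and 174 reads, and EIF4G2, a translation initiation factor that acts outside the usual cap complex, had 149 and 92. RNF219, a RING finger protein, had 49 and 201 reads at its long pyrimidine run. MED13, of the Mediator kinase module, had 79 and 75 reads, and CKS2, which binds cyclin-dependent kinases, had 64 and 58. SLC3A2, the heavy chain of amino acid transporters, had 40 and 88. Neither library was uniformly the higher: 10 of the 18 pairs had more reads in WT1, although its cluster reads were the larger in total.

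**Figure D3:**
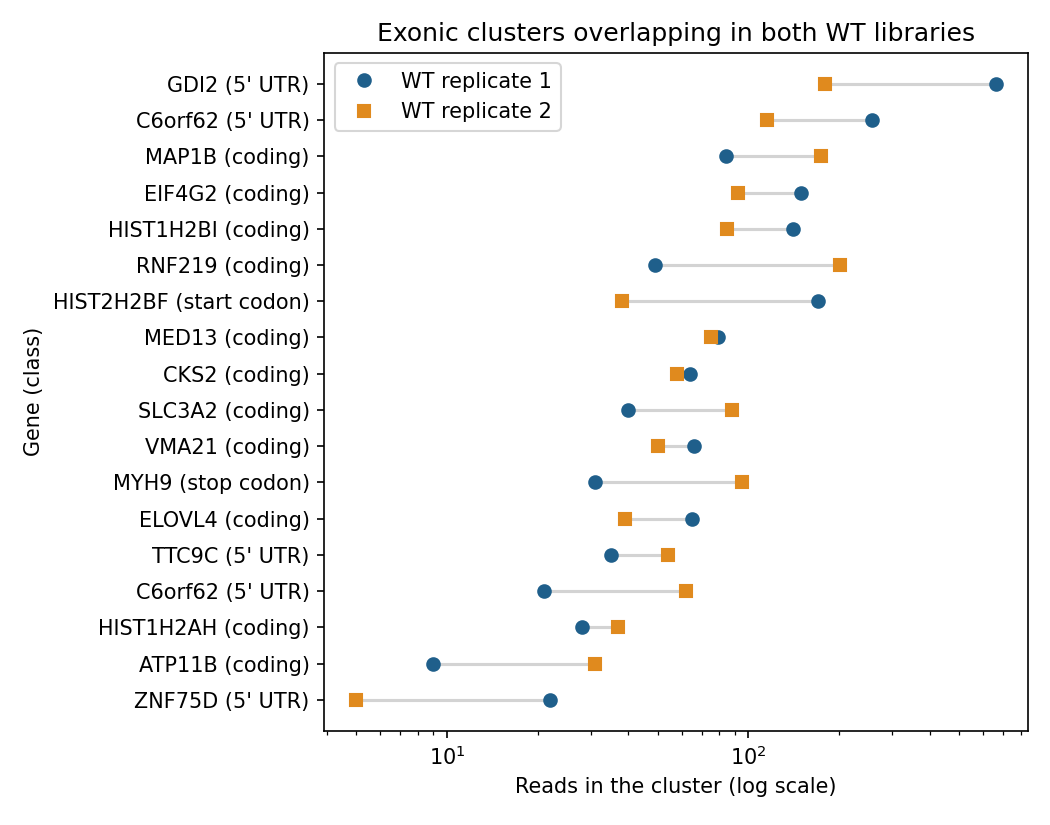
Reads per cluster (x axis, log scale) at the 18 exonic sites that overlapped between the WT libraries (y axis, gene and class), with a circle for WT1 and a square for WT2. GDI2 is the deepest site, with 660 and 179 reads, and the library with more reads changes from site to site.

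T-to-C shares, meaning the percentage of a cluster's reads with such a change, differed between the WT libraries at the same sites. At the identical interval in MAP1B it was 25% in WT1 and 98.3% in WT2. EIF4G2 had 19.5% and 100%, and MED13 32.9% and 98.7%, both again at identical intervals. CKS2 ran the other way at an identical interval, with 75% and 24.1%. These shares rest on few distinct read sequences, and reads carry no molecular identifiers. In WT1 and WT2 there were 7 and 6 at MAP1B, 8 and 2 at EIF4G2, 9 and 4 at MED13, and 12 and 5 at CKS2. GDI2 was low in both, with 39.1% and 34.1%. Over the 18 pairs the median was 54.9% in WT1 (range 12.3 to 96.4) and 93.7% in WT2 (24.1 to 100). The share was under 50% at 8 pairs in WT1, at 2 in WT2 and at 1, GDI2, in both. HIST1H2BI, with 72.9% and 68.2%, and MYH9, with 90.3% and 92.6%, were close between the libraries, so sites that recurred by position were alike in conversion in some cases and far apart in others.

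A low T-to-C share was more frequent among deep exonic clusters than among intronic clusters of the same depth in both WT libraries, a pattern noticed in these data. At 50 or more reads, 21 of 52 exonic clusters of WT1 had a T-to-C change in under 50% of their reads, 40.4% (28.2 to 53.9), against 6.0% (5.55 to 6.48) of intronic clusters. In WT2 the counts were 9 of 68, 13.2% (7.12 to 23.3), against 4.50% (4.10 to 4.93). None of 16 KO exonic clusters of that depth was so low, against 5.5% of KO intronic clusters, and the interval for 0 of 16 reached 19.4%. At 5 to 9 reads the exonic shares were 2.83% in WT1 and 6.67%, or 1 of 15 clusters, in WT2. Without the overlapping pairs the values at 50 or more reads were 35.7% (23.0 to 50.8) and 12.7% (6.30 to 24.0), and in coding sequence alone 32.3% and 14%. HSP90AB1, a cytosolic HSP90 chaperone, had 125 reads at 19.2% in WT1. SLC25A5, a mitochondrial ADP/ATP carrier, had 93 reads at 17.2%, and HNRNPA0 had 107 reads at 31.8% in its 5' UTR. In WT2, TSC22D1 had 88 reads at 10.2% at its stop codon. SLC25A5 and TSC22D1 were chosen after their values were seen. The abundance of these mRNAs was not measured here, and its part in the pattern was not tested.

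**Figure D4:**
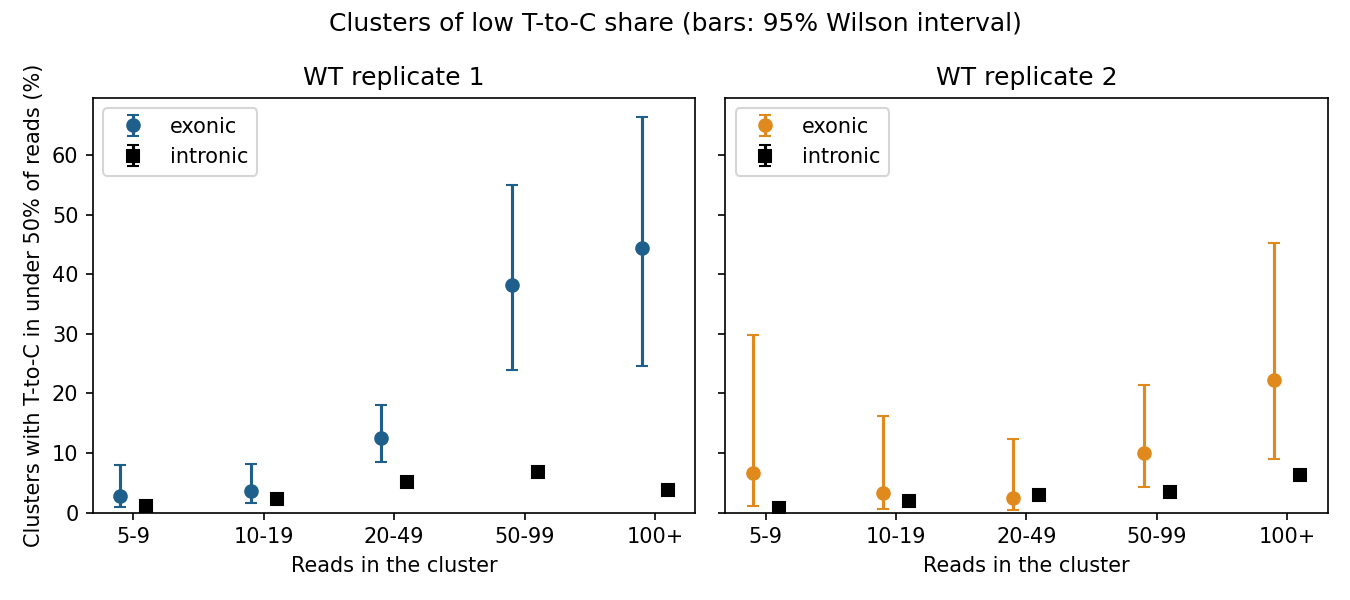
Share of clusters in which under 50% of reads carried a T-to-C change (y axis, percent) by reads in the cluster (x axis). Exonic and intronic clusters are shown in 1 panel per WT library, with 95% Wilson bars, and KO is not drawn. At 100 or more reads the exonic point stands at 44.4% against 3.82% for introns in WT1 and at 22.2% against 6.33% in WT2.

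Over all exonic clusters, T-to-C events were 8.54% of the T positions read in WT1 (8.40 to 8.68), 8.57% in WT2 and 15.0% (14.6 to 15.4) in KO. The intronic values were 8.03%, 7.77% and 10.5%. The median exonic cluster had T-to-C changes in 93.9% of its reads in WT1, 97.3% in WT2 and 96.3% in KO. The KO median per read lay between those of the WT libraries, and its value per T lay above both. At 3 or more converted positions the KO value was 9.18% and the WT mean 6.35%.

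Further exonic clusters that did not recur are shown next because they lead their library or class: those among the 5 deepest of their library, and the deepest of each annotation class in their library. Each line gives the central 30 bases or fewer of a cluster, with the longest run of C and T in capitals. The first 3 are from WT1, the next 6 from WT2 and the last 6 from KO.
JUN, chr1:58783899-58783928, minus strand: cttaTTTTCTTTTCaccttctctctaactg
MAT2A, chr2:85542923-85542952, plus strand: ctcatccattatctatctccaTTTTCCatt
HIST1H4K, chr6:27831182-27831211, minus strand: CCCTTTCTatcaacaaaaggccctttttag
CAPRIN1, chr11:34090601-34090630, plus strand: tttcaggctgggacaagcaaaCCTTTacat
FAM76B, chr11:95783145-95783174, minus strand: tcacattcaaattcaTCTTCTTCatctctt
ERF, chr19:42248986-42249015, minus strand: caTCCTCTTCTTCTTCTTCCTCCCCattca
RNF6, chr13:26221287-26221316, minus strand: aaaaaggcacaaacaaTTgaaggatggata
CLK3, chr15:74619195-74619224, plus strand: agatgcatcactgtaagcgataccgCTCCC
NCDN, chr1:35565645-35565674, plus strand: gtgcctgtcagagCCCTgaggggtgtccac
RPL7L1, chr6:42886035-42886064, plus strand: aataagaccaTCCCTCTgacagacaataca
ZDHHC17, chr12:76842055-76842083, plus strand: ttggaaatcagaTCCagggattattaaag
TFRC, chr3:196052108-196052137, minus strand: tttccgacatgTCTTCTggggctccggctc
FBXO5, chr6:152972378-152972407, minus strand: tatgttcagaaccccactggCTTCTgttca
HNRNPK, chr9:83972017-83972046, minus strand: aatgCCTCCTggtcggggtgggcgtcccat
MESDC1, chr15:81001776-81001805, plus strand: cctcccgcgCTCCTCCCCgaggaaaggatt
JUN, a subunit of the AP-1 transcription factor, had 235 reads in its 5' UTR and a T-to-C share of 70.2%. MAT2A, which makes S-adenosylmethionine, had 168 reads in coding sequence, and HIST1H4K, a histone H4 gene, had 105 at its stop codon. In WT2, CAPRIN1, an RNA-binding protein of stress granules, had 282 reads at a T-to-C share of 39.01% and FAM76B had 227 at 44.1%. ERF, an ETS repressor, had 217 reads over a run of 23 C and T bases. RNF6, a ubiquitin ligase, had 204 reads in its 5' UTR where the longest run was 2 bases. CLK3, a kinase of SR proteins, had 105 reads at its start codon and NCDN had 148 at its stop codon. The windows shown ranged from long pyrimidine runs to almost none.

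AZIN1 had 196 reads in its 5' UTR in WT1, also among the 5 deepest of that library. MATR3's own mRNA had 1 exonic cluster, at the start codon in WT1, with 8 reads of 1 distinct sequence, and none in WT2 or KO. Over all annotations MATR3 had 53 clusters in WT1 and 26 in WT2, of which 52 and 26 were intronic, and 0 in KO. The KO library had 842 clusters in all, and clusters do not measure the level of an mRNA or protein, so this is a weak check of the label.

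The 20 KO exonic clusters shared no position with WT. None was overlapped by a cluster of either WT library, while of 540 KO intronic clusters 22 met WT1 and 10 met WT2. The interval for 0 of 20 reached 16.1%, which holds the intronic shares of 4.07% and 1.85%. No WT exonic cluster was overlapped by a KO cluster, 0 of 480 in WT1 and 0 of 156 in WT2. Their intervals reached 0.794% and 2.40%, which hold the WT intronic shares met by KO, 0.030% and 0.044%. RPL7L1, a protein related to ribosomal protein L7, had the most reads, 608, and ZDHHC17, a palmitoyltransferase, had 457. TFRC, the transferrin receptor, had 446 reads, FBXO5, an inhibitor of the anaphase-promoting complex, 385, and HNRNPK 296. The other 15 clusters had 13 to 280 reads, with MESDC1 the deeper of the 5' UTR sites at 80. T-to-C shares of the 20 ran from 86.4% to 100%. Of the 20 genes, 16 had a cluster of any kind in WT1 and 11 in WT2, while RPL7L1, RPS6, SYT16 and MESDC1 had none in either. FBXO5 also had an exonic cluster in WT1, of 14 reads, at a separate position. Read counts are not scaled to library depth, and KO clusters were deeper throughout, so these read numbers are not compared between genotypes.

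Most WT genes with an exonic cluster also had intronic clusters. In WT1, 327 of 428 genes had an intronic cluster in the same library, 76.4% (72.2 to 80.2), with a median of 5 per gene. In WT2 this was 86 of 150, 57.3% (49.3 to 65.0), with a median of 1, and in KO 2 of 20, 10% (2.79 to 30.1). Exonic clusters held 7.04% of all cluster reads in these genes in WT1, 20.3% in WT2 and 89.6% in KO. An intronic cluster in at least 1 WT library was found for 116 of the 150 genes of WT2 and 15 of the 20 KO genes. The libraries differed in their number of clusters, and the part of this in these shares was not tested. Over all genes with an exonic or intronic cluster, 7878 of 7979 in WT1 and 5249 of 5313 in WT2 had an intronic one. A gene without an exonic cluster enters that count only through an intronic cluster, so its share is high by definition. Exonic clusters were also more isolated than intronic ones. Another cluster of the same strand lay within 500 nt of 26.0% of exonic and 43.2% of intronic clusters in WT1, and of 14.1% and 26.1% in WT2. In KO the values were 0 of 20 and 0.370%.

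The gene with the most exonic clusters over both WT libraries was C6orf62, with 3 in WT1 and 2 in WT2, tied with SRCAP, a chromatin remodelling ATPase, with 5 in WT1 alone. The 5 SRCAP clusters had 12 to 63 reads. ACTB, cytoplasmic beta-actin, had 4 clusters of 15 to 27 reads and OGT, which adds GlcNAc to proteins, 4 of 11 to 34, all in WT1. PPRC1, a coactivator of mitochondrial biogenesis, had 3 in WT1 of 8 to 31 reads and 1 in WT2 of 71 reads. EGR1, an immediate early transcription factor, had 3 coding clusters of 17, 24 and 46 reads in WT1. GDI2, SLC3A2, MYH9 and PROSER1 each had 2 and 1, and in PROSER1 the 2 libraries did not overlap. MYH9, non-muscle myosin heavy chain, had its pair at the stop codon with 31 and 95 reads. In all, 37 genes had an exonic cluster in both WT libraries, 8.64% of those of WT1 and 24.7% of those of WT2, and 17 of them had an overlapping pair.

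Replication-dependent histone genes, which have no introns, were present among the exonic clusters of both WT libraries, a group chosen after its values were seen. WT1 had 16 exonic clusters in 14 histone genes with 6 to 170 reads, WT2 had 5 in 5 genes with 12 to 85, and KO had 0. They were 3.33% of exonic clusters in WT1 and 3.21% in WT2. Over all annotations histone genes held 35 of the 87230 clusters of WT1 and 9 of the 27155 of WT2. HIST1H2BI, a histone H2B gene, had 140 and 85 reads at its shared coding site, with T-to-C shares of 72.9% and 68.2%. HIST2H2BF, also an H2B gene, had 170 and 38 reads at its start codon, with 49.4% and 94.7%, and HIST1H2AH, an H2A gene, had 28 and 37. Histone copies are nearly identical, so which gene such reads come from is uncertain, and the same holds for ACTB beside ACTG1.

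Gene lists taken as likely to hold abundant mRNAs differed in how often their genes had an exonic cluster. The abundance of these mRNAs was not measured here. Over all genes with an exonic or intronic cluster, 5.36% had an exonic one in WT1 (428 of 7979), 2.82% in WT2 (150 of 5313) and 3.86% in KO (20 of 518). Of 79 cytosolic ribosomal protein genes, 2, 1 and 1 had an exonic cluster in WT1, WT2 and KO, although 47, 24 and 3 had any exonic or intronic cluster. This was 4.26% in WT1 and 4.17% in WT2 of those with a cluster. The genes were RPL11 with 30 reads and RPS24 with 5 in WT1, RPL28 with 84 in WT2, and RPS6 with 199 in KO. Of 26 chaperone genes, 5, 2 and 0 had one, out of 17, 12 and 0 with any cluster. That is 29.4% in WT1 and 16.7% in WT2 of those with a cluster. The count in both libraries includes NCL, the nucleolar protein nucleolin, with 50 and 58 reads at separate sites. Of 39 translation factor genes, 28, 21 and 1 had any cluster and 3, 2 and 0 an exonic one. That was 10.7% in WT1 and 9.52% in WT2 of those with a cluster. The genes were EIF4G2 in both WT libraries, EIF4A1 at 26 reads and PABPC1 at 25 in WT1, and EEF2 at 30 in WT2. The 17 glycolytic enzymes had none in any library, although 10 and 8 of them had an intronic cluster in WT1 and WT2.

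The other lists lay on both sides of the share over all genes. Of 29 hnRNP genes, 24, 15 and 4 had any exonic or intronic cluster in WT1, WT2 and KO, and 1 had an exonic cluster in each library: HNRNPA0 in WT1, PCBP1 with 29 reads in WT2 and HNRNPK in KO. Of 17 SR splicing factor genes, 13 with any cluster in WT1, only SON had an exonic one, with 10 reads in WT1. Of 36 genes listed as chromatin remodellers, 33, 29 and 4 had any cluster and 3, 0 and 1 an exonic one. The genes were SRCAP, SMARCD1 with 29 reads and CHD2 with 26 in WT1, and KMT2B, a histone methyltransferase gene, with 192 in KO. Of 25 genes listed for the actin and tubulin cytoskeleton, 16, 9 and 1 had any cluster and 3, 1 and 0 an exonic one. These were ACTB, ACTG1 and MYH9 in WT1 and MYH9 alone, a myosin gene, in WT2. That was 18.8% of those with a cluster in WT1 and 11.1% in WT2. In WT1 the same share was 4.17% for hnRNP genes and 9.09% for chromatin remodellers. Of 20 genes of nucleic acid sensing, the pathway in the study's title, 11, 6 and 1 had any cluster. TMEM173, which encodes STING, had 1 coding cluster in WT1, with 8 reads of 1 distinct sequence. The other 19 genes had no exonic cluster in any library. The lists were written with earlier results of these data known, and no list was tested.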

How the data were processed

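PAR-CLIP was measured in 3 HAP1 libraries (WT replicate 1, WT1; WT replicate 2, WT2; 1 KO). Per the submitters' processing notes, cutadapt 1.8.3, Bowtie 1.1.2, hg38 and GRCh38.p5 were used, with no role stated. The cluster caller and its settings are not given in the sources used here. The authors deposited 1 table of clusters per library, with counts of reads, distinct sequences, converted positions and T-to-C events, not normalised. Deposited as a fraction are, for each cluster, reads with a T-to-C change and reads ending in G, the latter used in no result. The lowest exonic cluster had 5 reads in each WT library, 13 in KO, and 2 converted positions in all 3, so weaker sites are unseen. Only reads in clusters are listed, so sequencing depth is unknown.

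Clusters were selected, overlapped (at least 1 nt, same strand) and counted with Python 3.11.15, numpy 2.4.6, pandas 2.3.3 and scipy 1.17.1, checked on simulated data. Shares carry 95% Wilson intervals. Intronic clusters of the same library served as the comparison. In the same 4 classes, 59, 72 and 8 mitochondrial clusters were left out. Gene symbols are as deposited, and 421 of 428, 149 of 150 and 20 of 20 matched a RefSeq table. The members and gene lists were chosen with earlier results of these data known. Genes named are the 10 deepest WT pairs, the 5 deepest clusters per library and the deepest of each class, the 10 genes with most clusters, up to 4 genes a list with the most reads, and others said to be chosen after their values were seen.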

Additional observations from a re-analysis of the deposited data

How the results depend on the processing

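Of 49 alternatives to WT means that keep both libraries, 34 moved the mean by less than its SD and 15 by more. Of 38 for KO, 28 stayed inside the interval of the reported value and 10 left it. The T difference stayed negative in each of its alternatives. All other values are shares or medians that cannot be negative, so no sign could reverse in them. At 3 or more converted positions, the exonic share of clusters moved to 0.325% (WT mean) and 0.758% (KO), of reads to 0.372% and 0.574%, the T share to 37.2% and 34.4%, the T difference to -5.75 and -1.31 points, T-to-C events per T to 6.35% and 9.18%, and median reads to 63.25 and 304.5. There TTCTT or TTTCT was in 33.2% of WT exonic clusters, and in KO the shares with TTCTT or TTTCT, with ATCTT and of genes with an intronic cluster were 0%, over 2 clusters. With 1 cluster per gene, the WT share of clusters was 1.27%, of reads 0.868% (KO 2.29%) and T-to-C events 8.49%. In the coding class alone these WT values were 0.396%, 0.347% and 8.97%, and TTCTT or TTTCT was in 25.3%. At 10 or more reads WT T-to-C events were 8.36%. Leaving out either WT replicate gives the other's value, which lies within 1 SD of a mean of 2 by construction and tests nothing: recurrence was 3.75% and 12.2%, and low T-to-C share 40.4% and 13.2%. The T-to-C share at 50 or more reads and its alternatives were added after seeing the data. Placing coding clusters in proteins was not run. No paired analysis was possible because the groups share at most 1 replicate number and no test was made. With 20 KO clusters, only large differences can be seen.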

Other observations

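The deposited column for the share of reads ending in G depended on strand. Its median over exonic clusters was 0.846 in WT1 and 1 in both WT2 and KO on the plus strand, and 0 on the minus strand in all 3 libraries. The cluster sequences themselves ended in G for 58.5%, 90.9% and 75% of plus-strand clusters and for 71.6%, 89.9% and 50% of minus-strand clusters.

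The word GTGGC was in 5% of exonic clusters of WT1 (3.38 to 7.33) against 1.48% of intronic clusters at the same lengths. In WT2 the values were 3.21% (1.38 to 7.28) and 1.27%, and in KO 1 of 20 clusters held it.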
